A study of Rattus norvegicus with 6 samples.

Results

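Interferon response genes are genes whose transcription rises when a cell detects an interferon. The 34 genes described here were named individually as a module of that response, from the sensors and transcription factors that drive it to the antiviral proteins it produces. Probe accessions were matched to RefSeq gene symbols. At least 1 probe was found for 32 of the 34 genes, and 30 of them had a probe bright enough to test, among 30229 genes tested in all.

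RNA came from the renal cortex of male rats of the Sprague-Dawley strain (Crl:CD(SD)), bought at 5 weeks of age and dosed for 4 weeks. One group of 3 animals received corn oil, the vehicle, and the other group of 3 received monuron, a phenylurea herbicide, at 200 mg/kg/day. All animals ate the same basal diet. Each animal gave 1 array, a 1-colour Agilent microarray on which Cy3-labelled RNA binds to oligonucleotide probes. A level below is the probe's processed signal divided by the 75th percentile of its array, so it has no unit, and levels are compared between animals and never between genes. A summed level over a marker list follows its brightest probes.

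Type I interferons bind a receptor at the cell surface, and the kinases attached to it activate the factor ISGF3, which includes STAT2 and IRF9 and binds the interferon-stimulated response element in the promoters of its target genes. IRF7, itself induced by interferon, drives further interferon production, and USP18 shuts the receptor down and removes the ubiquitin-like protein ISG15 from its targets. Interferon gamma uses a separate receptor, and its signal acts through another promoter element, the gamma-activated site.

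After monuron, 2 of the 30 tested genes fell and 0 rose. They were Usp18, whose level was 2.64-fold lower (95% interval 2.07 to 3.38), and Irf7, which was 2.11-fold lower (95% interval 1.66 to 2.68). Both passed limma's test with Benjamini-Hochberg adjustment over all genes, at an adjusted p of 0.0197 and 0.0344. Over all genes tested, 125 fell, which is 0.414%, and 287 rose, which is 0.949%, or 1.36% in either direction. Other genes of the module lay lower without passing this test, among them Ifit3, Oas1a, Isg15 and Ifit2, while Rsad2, Cxcl10 and Parp14 lay higher, also without passing it.

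Of the 30 tested genes, 23 had a log2 fold change below 0 and 7 above 0, with a median of -0.28. Among all genes tested, 44.7% lay below 0 and the median was 0.02. In 13 of the 30, every monuron array was below every corn oil array, which is 43.3% against 10.3% of all genes. In 2 of the 30, Stat2 and Parp14, every monuron array was above every corn oil array, an order found in 15.5% of all genes. At an unadjusted p under 0.05, 11 lay lower and 1 higher, where 6.73% and 10.9% of all genes did. A gene entered these counts if it was well above background in all arrays of at least 1 group, so the counts cover the 30 that passed and not the whole module of 34.

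Small changes depended on how the arrays were scaled. Scaled on 4 spike-in control probes, all genes had a median of -0.46 on the log2 scale and the 30 genes one of -0.77, with 28 below 0. Without scaling the medians were 0.11 and -0.20, with 20 below 0. Each of these scalings moves all genes of an array by the same amount. They therefore can hardly change where the module's median lies relative to that of all genes. The 2 calls depended on the settings: of 19 alternative analyses, Usp18 was called in 11 and Irf7 in 10. In 8 of the 19 no gene of the module was called, while scaling on spike-in controls called 25 of the 30 lower together with 66.3% of all genes. Usp18, Irf7, Ifit3, Oas1a and Isg15 lay below 0, and Rsad2 and Cxcl10 above 0, in all 19. A constant sign was also found in genes with small changes. Mx2 and Oas2, for example, were below 0 in all 19, though as near to it as -0.01 and -0.02.

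**Figure D1:**
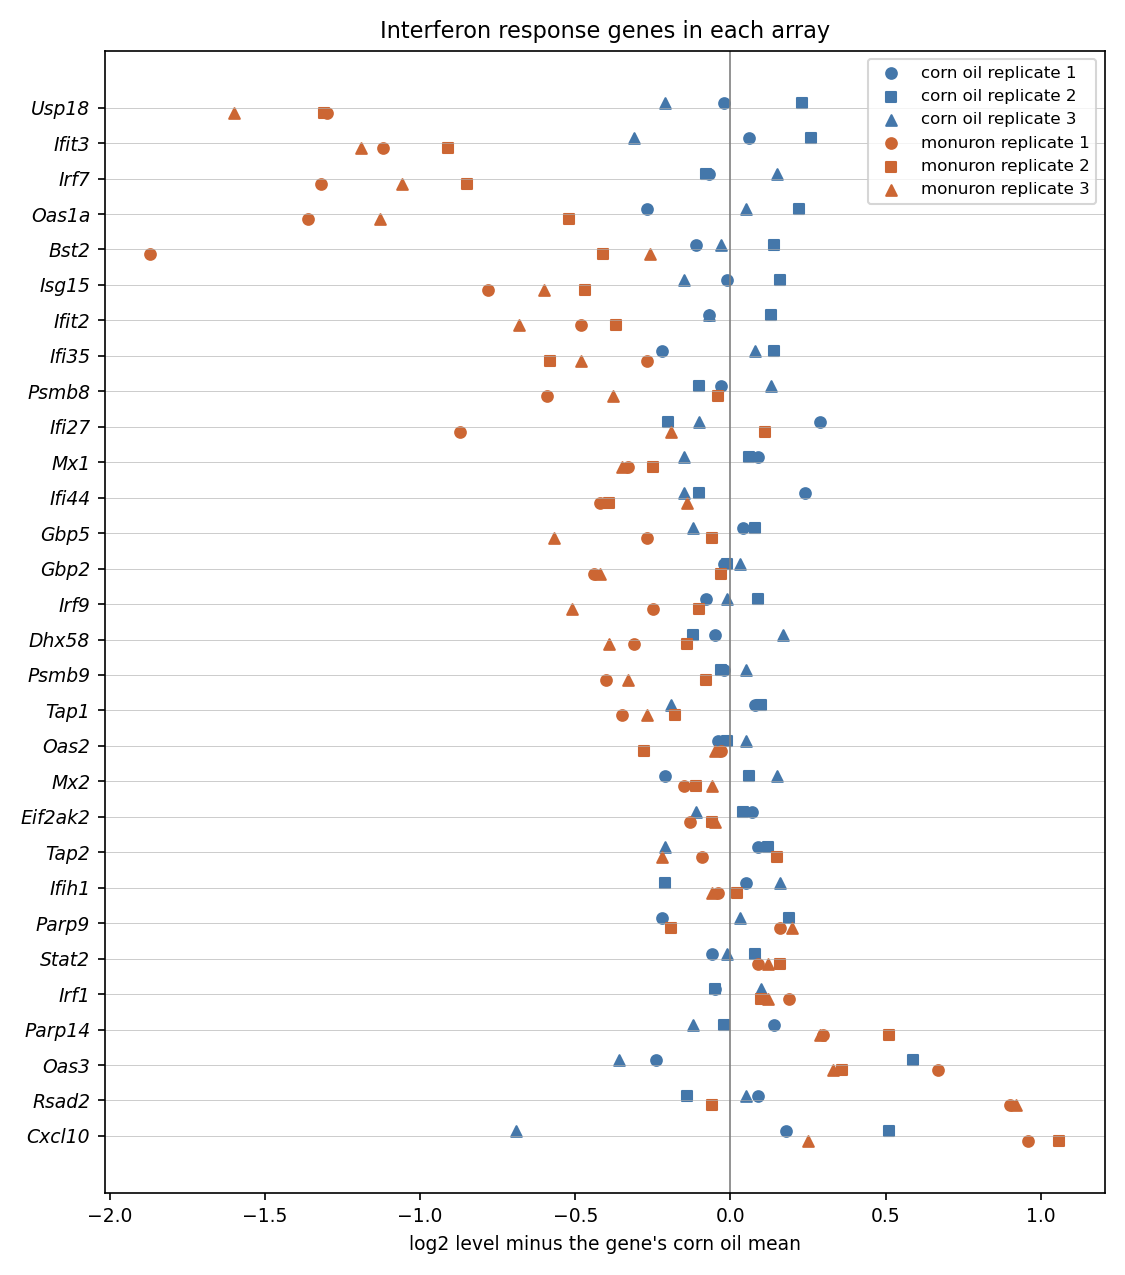
Log2 level of each tested interferon response gene in each of the 6 arrays, minus that gene's corn oil mean, on the horizontal axis. Genes are ordered by log2 fold change, with 3 corn oil arrays in blue and 3 monuron arrays in orange. Usp18, Ifit3 and Irf7 stand at the top with all monuron arrays at -0.85 or lower, and Rsad2 and Cxcl10 at the bottom have monuron arrays up to 0.92 and 1.06.

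Each group had a slide and a scan day of its own, so the treatment cannot be told apart from either. The share of probes well above background ran from 60.9% to 70.4% over the arrays, their 75th percentile from 824.8 to 922.0 signal units, and 0 spots were saturated. The number of arrays, 3 in each group, limits the precision of every value. The monuron arrays also held higher levels of red cell markers, with 3 of 5 tested markers called higher, against 0.949% of all genes. Among them was the globin gene Hbb, at 337 to 361 against 154 to 207 with corn oil. Proximal tubule markers, which define this tissue and were all above background, summed to 1427 to 1504 with monuron against 1560 to 1741. In 4 of the 8 every monuron array was below every corn oil array, an order found in 10.3% of all genes, while 0 of the 8 passed the test. The part of these differences in the results was not tested.

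The promoters show which letters the module shares beyond its name. Promoter sequences came from RefSeq (assembly GRCr8) for 26 of the 34 genes, each covering 250 bases before and 50 bases after the gene start. Usp18, one of the called genes, had none, nor did Isg15, Ifit1, Ifit2, Mx2, Oas2, Dhx58 and Ddx58. The response element was searched as GAAA, any 2 bases and GAAA, and the gamma-activated site as TTC, any 3 bases and GAA, on both strands, and a match of one pattern may share letters with a match of the other. The response element's letters were found in 18 of the 26 promoters, or 69.2%, against 1312 of all 33469 promoters of the same length, or 3.92%. Those of the gamma-activated site were found in 6 of the 26, or 23.1%, against 8.87% of all promoters. The first pattern was in 13 of the 17 promoters of genes with a log2 fold change below 0, and in 4 of the 7 of genes above 0. A match is a description of letters and not evidence of binding.

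The sequences below are the 250 bases before the start of 4 genes that lay lower with monuron and 3 that lay higher, to show that the element occurs on both sides. They read 5′ to 3′ on the gene's strand, and capitals mark a match to the response element's pattern or its reverse complement.

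Irf7, chr1:205800024-205800273, minus strand: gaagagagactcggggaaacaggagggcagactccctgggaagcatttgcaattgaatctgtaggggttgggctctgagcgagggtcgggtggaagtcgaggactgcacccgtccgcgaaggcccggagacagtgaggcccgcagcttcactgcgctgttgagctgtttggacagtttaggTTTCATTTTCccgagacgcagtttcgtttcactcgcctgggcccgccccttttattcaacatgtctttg
Ifit3, chr1:241527076-241527325, plus strand: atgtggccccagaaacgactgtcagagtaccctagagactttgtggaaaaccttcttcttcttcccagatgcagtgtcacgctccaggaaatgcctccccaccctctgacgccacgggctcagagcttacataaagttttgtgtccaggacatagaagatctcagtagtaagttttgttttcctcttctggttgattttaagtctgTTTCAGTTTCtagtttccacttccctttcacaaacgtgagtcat
Oas1a, chr12:41330216-41330465, plus strand: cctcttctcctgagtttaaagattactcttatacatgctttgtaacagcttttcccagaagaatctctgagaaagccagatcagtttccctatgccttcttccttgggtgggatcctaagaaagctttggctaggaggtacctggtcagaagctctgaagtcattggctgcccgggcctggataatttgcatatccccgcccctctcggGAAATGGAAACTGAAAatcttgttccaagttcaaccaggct
Bst2, chr16:18254968-18255217, minus strand: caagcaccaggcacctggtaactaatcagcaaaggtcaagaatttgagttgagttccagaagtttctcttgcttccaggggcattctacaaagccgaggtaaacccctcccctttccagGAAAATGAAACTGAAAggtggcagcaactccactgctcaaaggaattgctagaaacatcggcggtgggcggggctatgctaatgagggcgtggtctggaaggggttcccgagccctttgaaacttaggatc
Rsad2, chr6:48788121-48788370, minus strand: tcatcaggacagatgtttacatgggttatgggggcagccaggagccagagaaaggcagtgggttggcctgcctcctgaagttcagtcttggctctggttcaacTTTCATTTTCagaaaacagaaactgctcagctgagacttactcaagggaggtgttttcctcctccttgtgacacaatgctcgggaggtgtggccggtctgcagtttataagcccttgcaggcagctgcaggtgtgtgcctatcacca
Parp14, chr11:78407884-78408133, plus strand: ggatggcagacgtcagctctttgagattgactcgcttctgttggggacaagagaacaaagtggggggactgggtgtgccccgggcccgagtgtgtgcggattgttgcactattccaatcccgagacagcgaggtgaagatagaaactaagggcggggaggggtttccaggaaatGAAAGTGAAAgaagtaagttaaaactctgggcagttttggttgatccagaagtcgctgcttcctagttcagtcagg
Cxcl10, chr14:15988816-15989065, plus strand: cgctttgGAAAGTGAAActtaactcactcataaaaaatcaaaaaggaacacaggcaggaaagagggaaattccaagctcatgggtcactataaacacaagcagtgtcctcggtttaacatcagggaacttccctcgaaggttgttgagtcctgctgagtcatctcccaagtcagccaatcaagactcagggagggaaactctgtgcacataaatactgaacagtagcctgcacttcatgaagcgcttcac

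The match began 44 bases before the start in Ifit3, 69 bases before it in Irf7 and 76 bases before it in Parp14. It lay further out in Rsad2 and Cxcl10, at 147 and 243 bases. Oas1a and Bst2 each held 2 matches that share letters, beginning 41 and 35 bases before the start in Oas1a and 131 and 125 bases before it in Bst2. Irf7 and Ifit3, which lay lower, and Rsad2, which lay higher, carried the element as its reverse complement, TTTCATTTTC in both Irf7 and Rsad2 and TTTCAGTTTC in Ifit3. Parp14 and Cxcl10 carried the same 10 letters, GAAAGTGAAA.

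Of the 4 signalling proteins and transcription factors, 1 fell and 0 rose, where 0.414% and 0.949% of all genes did. Irf7, a master regulator of type I interferon transcription, had levels of 2.06, 2.05 and 2.40 in the corn oil arrays and 0.868, 1.20 and 1.04 in the monuron arrays. The groups did not overlap, and the highest monuron array stood well under the lowest corn oil array. The means were 2.17 ± 0.203 and 1.04 ± 0.166 (SD, n = 3 each), a log2 fold change of -1.07 ± 0.14 (SE). The array held 1 probe for Irf7. Its call was lost when any 1 of the 6 arrays was left out (adjusted p from 0.0747 to 0.131), while the log2 fold change stayed between -1.19 and -0.95.

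Stat2, a subunit of ISGF3, had levels of 3.75, 4.13 and 3.88 with corn oil and 4.17, 4.38 and 4.27 with monuron. All monuron arrays were above all corn oil arrays by a narrow margin, and the log2 fold change of 0.12 ± 0.07 did not pass the test (adjusted p = 0.399). Scaled on spike-in controls it was -0.36. A second, dimmer Stat2 probe gave -0.07. Irf9, the DNA-binding subunit of ISGF3, lay the other way, at 0.317, 0.357 and 0.333 with corn oil and 0.283, 0.313 and 0.236 with monuron. Its groups just failed to overlap and its log2 fold change of -0.29 ± 0.12 did not pass (adjusted p = 0.299). Irf1, a factor induced by interferon gamma, ranged from 3.52 to 3.92 with corn oil and from 3.91 to 4.16 with monuron. The groups overlapped, its log2 fold change was 0.14 ± 0.07, or -0.35 when scaled on spike-in controls, and its dimmer probe gave -0.39.

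Of the 3 viral RNA sensors, 2 were tested and 0 passed. At an unadjusted p under 0.05, 1 lay lower, against 6.73% of all genes. Dhx58, a regulator of the RIG-I family of viral RNA sensors, had levels of 0.203, 0.194 and 0.238 with corn oil and 0.170, 0.191 and 0.161 with monuron. The groups did not overlap, though corn oil replicate 2 and monuron replicate 2 nearly met. Its log2 fold change was -0.28 ± 0.11 (adjusted p = 0.271), with -0.48 to -0.15 over its 3 probes. Ifih1, the sensor MDA5, showed a log2 fold change of -0.03 ± 0.11, with a 95% interval of the fold from 0.817 to 1.18, and lay at 0.06 without scaling. Ddx58, the sensor RIG-I, was not analysed here because 0 probes matched it.

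ISG15 and its protease USP18 form an opposing pair, and both transcripts were lower in every monuron array than in any corn oil array. Usp18 had levels of 0.215, 0.255 and 0.189 with corn oil and 0.0887, 0.0880 and 0.0720 with monuron. Every monuron array was below the lowest corn oil array by a wide gap. The means were 0.220 ± 0.0336 and 0.0829 ± 0.00946 (SD, n = 3 each), a log2 fold change of -1.40 ± 0.14 (SE).

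A second Usp18 probe gave a log2 fold change of -1.19 ± 0.15. It passed when every probe was tested on its own (adjusted p = 0.0325 in limma), a test in which 0.391% of 41125 probes fell and 0.832% rose. Its remaining probe was well above background on 1 of the 6 arrays and was not tested. Leaving out corn oil replicate 3 kept the Usp18 call (adjusted p = 0.0414), while leaving out any of the other 5 arrays lost it (adjusted p from 0.0529 to 0.0842).

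Isg15, the ubiquitin-like protein itself, had levels of 1.23, 1.38 and 1.11 with corn oil and 0.721, 0.891 and 0.818 with monuron. The groups did not overlap. The level was 1.53-fold lower (95% interval 1.25 to 1.87), a log2 fold change of -0.61 ± 0.12 that did not pass over all genes (adjusted p = 0.0835).

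**Figure D2:**
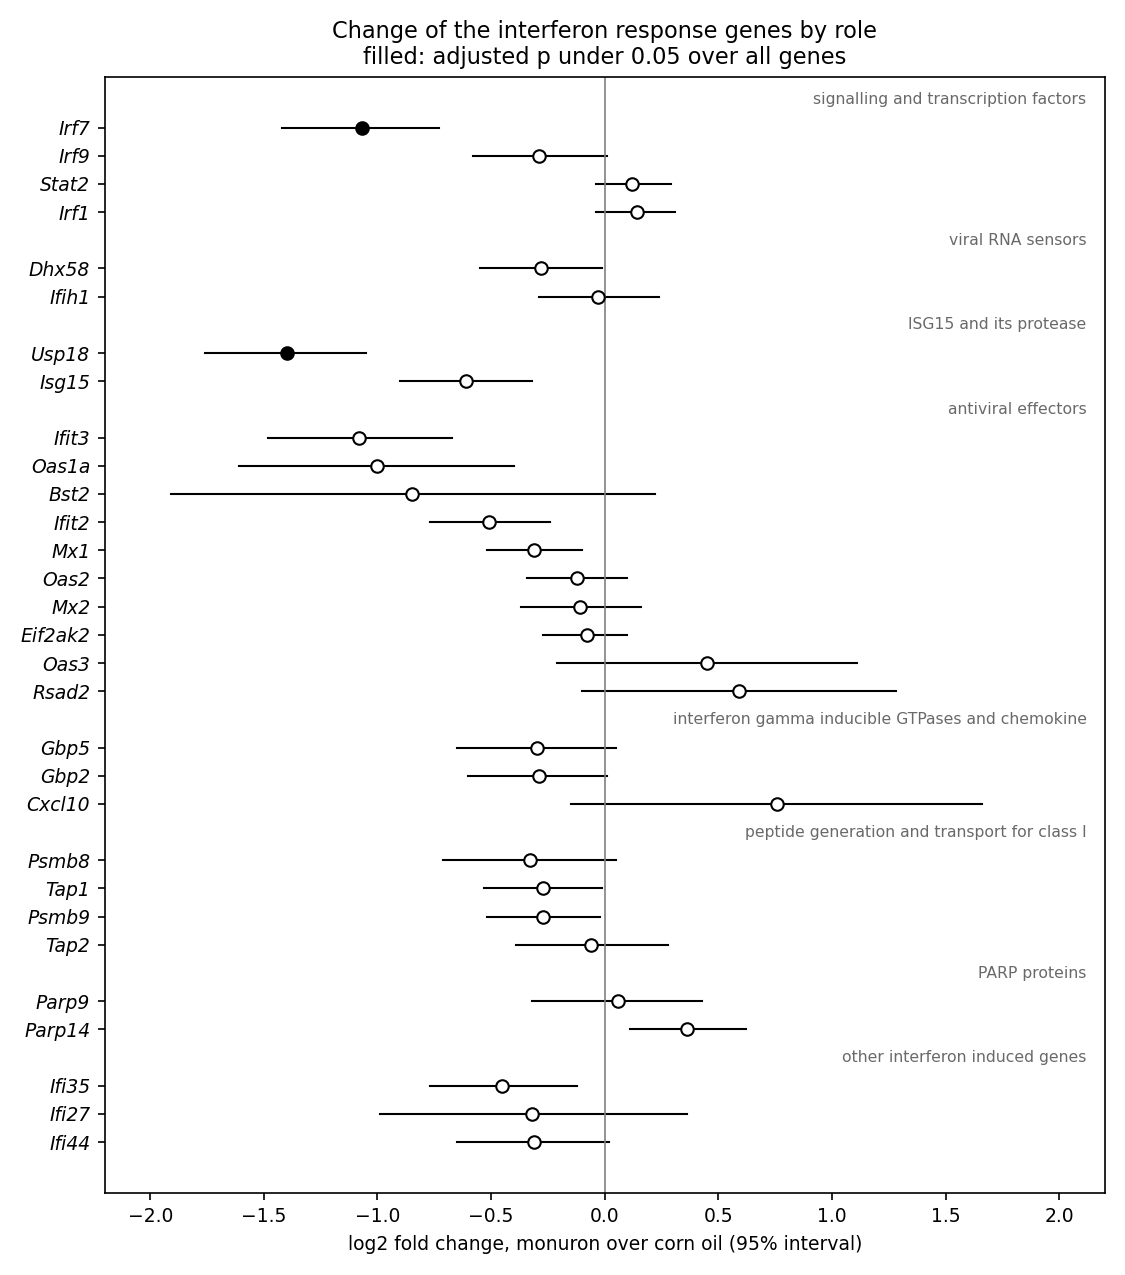
Log2 fold change of monuron over corn oil for the 30 tested genes, grouped by role, with 95% intervals from the limma fit. Filled points, Irf7 and Usp18, passed the test over all genes, and the 2 PARP proteins both stand above 0, where scaling on spike-in controls puts both below 0.

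Among the 12 antiviral effectors, 10 were tested, 8 of them below 0, and 0 passed. At an unadjusted p under 0.05, 4 lay lower and 0 higher, where 6.73% and 10.9% of all genes did. Ifit3, which with its relatives binds viral RNA, came nearest. Its levels were 0.166, 0.191 and 0.128 with corn oil and 0.0733, 0.0851 and 0.0698 with monuron, so every monuron array was below every corn oil array. The log2 fold change was -1.08 ± 0.17 and the adjusted p 0.0504, just over the threshold. The second Ifit3 probe gave -0.81 ± 0.25. Ifit2, of the same family, had levels of 0.290, 0.333 and 0.291 with corn oil and 0.218, 0.236 and 0.190 with monuron. These groups were also apart, differing by -0.51 ± 0.11 on the log2 scale (adjusted p = 0.100).

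The oligoadenylate synthetases sense double-stranded RNA and activate RNase L. Oas1a had levels of 1.18, 1.66 and 1.47 with corn oil and 0.555, 0.993 and 0.648 with monuron. The groups were apart, with monuron replicate 2 the highest of its group, and the log2 fold change was -1.00 ± 0.25 (adjusted p = 0.128). A second Oas1a probe gave -1.12 ± 0.22. Oas1 has several near-identical copies in the rat, so these probes may read more than 1 copy. Oas2 differed little, from 0.0970 to 0.104 with corn oil and 0.0824 to 0.0977 with monuron (log2 fold change -0.12 ± 0.09). Oas3 went the other way, from 0.0449 to 0.0868 with corn oil and from 0.0722 to 0.0913 with monuron, with overlapping groups and a log2 fold change of 0.45 ± 0.27, or -0.04 when scaled on spike-in controls.

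The Mx proteins are GTPases that block virus replication. Mx1 had levels of 3.48, 3.42 and 2.96 with corn oil and 2.60, 2.75 and 2.57 with monuron. The groups did not overlap, and the log2 fold change of -0.31 ± 0.09 did not pass (adjusted p = 0.163). A dimmer Mx1 probe lay at -0.84, but it was well above background on only 2 corn oil arrays and 1 monuron array and was not tested. The 2 probes of Mx2 disagreed in size. Its brighter probe had levels of 71.0, 85.8 and 91.1 with corn oil and 73.9, 76.2 and 78.8 with monuron, overlapping, at -0.11 ± 0.11. Its dimmer probe read 0.0754, 0.0764 and 0.0717 with corn oil and 0.0223, 0.0332 and 0.0350 with monuron, with no overlap. That probe's log2 fold change of -1.33 ± 0.18 passed when every probe was tested on its own (adjusted p = 0.0384 in limma). Which of the 2 reads Mx2 transcripts better was not tested.

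Bst2, or tetherin, holds budding virus at the cell surface. Its levels were 3.65, 4.32 and 3.84 with corn oil and 1.07, 2.96 and 3.28 with monuron. The groups did not overlap, but monuron replicate 1 lay far below the other monuron arrays, on both Bst2 probes. The log2 fold change of -0.85 ± 0.43 did not pass (adjusted p = 0.376). Without monuron replicate 1 it was -0.33 (adjusted p = 0.280). Bst2 also marks plasmacytoid dendritic cells, and the other 5 tested markers of those cells summed to 5.07 to 5.74 with monuron and 5.72 to 6.49 with corn oil, which just overlap, with 0 called, Irf8 and Spib above 0 at 0.10 and 0.41, and Siglech matched by 0 probes. The part of those cells in its value was not tested. Eif2ak2, the kinase PKR that halts translation, overlapped between groups, with a log2 fold change of -0.08 ± 0.08 that was 0.00 without scaling.

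Rsad2, viperin, makes an antiviral nucleotide and was the effector furthest above 0. Its levels were 1.92, 1.64 and 1.86 with corn oil and 3.35, 1.73 and 3.41 with monuron. Monuron replicates 1 and 3 were above every corn oil array, and monuron replicate 2 lay among them. The log2 fold change was 0.59 ± 0.28 (adjusted p = 0.347). Another Rsad2 probe gave 0.61. Its remaining probe was well above background in all monuron arrays and in 0 corn oil arrays, so it was tested only because of the monuron arrays. As a bound, it was at least 1.87-fold higher with monuron. It did not pass when every probe was tested on its own (adjusted p = 0.0796 in limma). Ifit1 and Oasl, also effectors, were well above background on 0 of the 6 arrays and were not tested.

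**Figure D3:**
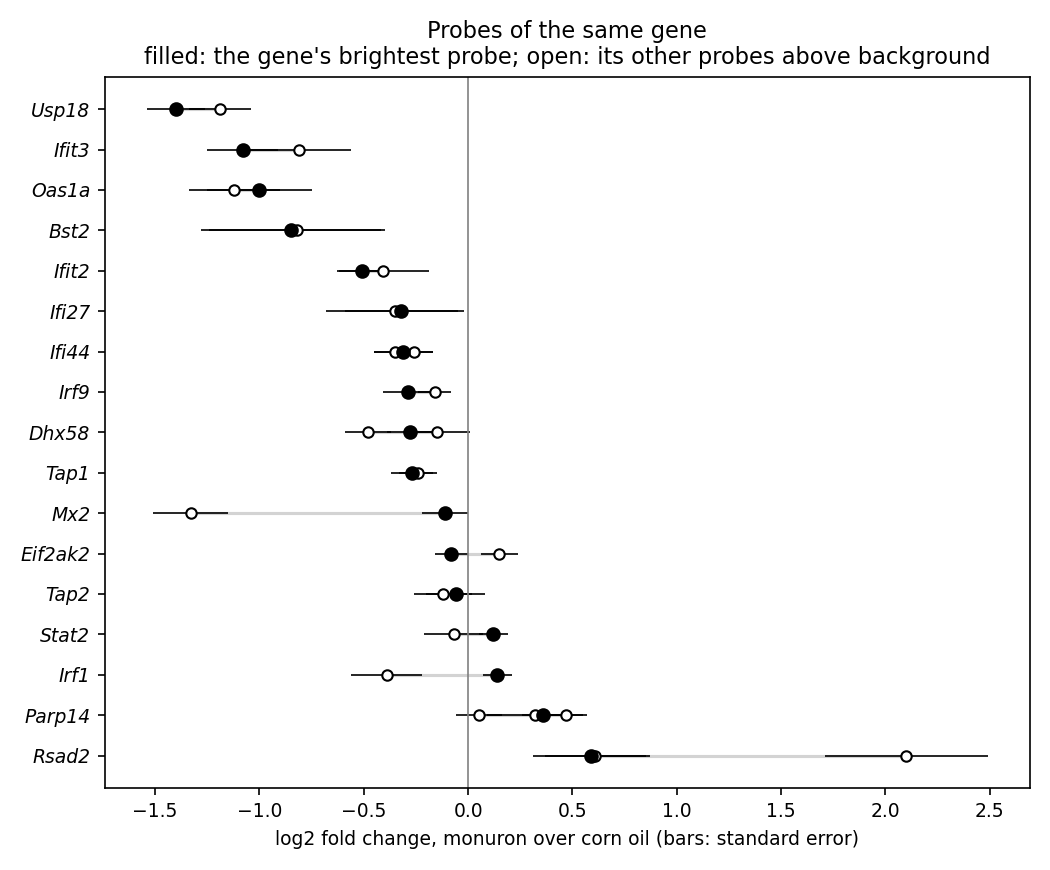
Log2 fold change of monuron over corn oil for each passing probe of the 17 genes with more than 1, with standard errors. The filled point is the brightest probe, whose value is used for the gene, and open points are the others. The probes of Usp18, Ifit3 and Oas1a lie close together, while those of Mx2 lie at -0.11 and -1.33.

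Of the 17 tested genes with at least 2 passing probes, 12 had all probes below 0 and 2, Parp14 and Rsad2, had all above 0. The other 3, Stat2, Irf1 and Eif2ak2, had probes on both sides of 0, which is 17.6%. Of the 6233 symbol-named genes with at least 2 passing probes, 2224 had probes on both sides, or 35.7%.

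Of the 3 interferon gamma inducible genes 0 passed, also at an unadjusted p under 0.05, and they did not lie on one side of 0. The guanylate-binding proteins Gbp2 and Gbp5, GTPases that attack intracellular pathogens, both lay lower. Gbp2 had levels of 1.88, 1.89 and 1.93 with corn oil and 1.40, 1.87 and 1.42 with monuron, with replicate 2 just below the corn oil arrays and the other 2 well below (log2 fold change -0.29 ± 0.12, adjusted p = 0.301). Gbp5 was also highest in replicate 2 among the monuron arrays, at 0.235, 0.272 and 0.192 against 0.292, 0.300 and 0.261 with corn oil, and its groups overlapped (-0.30 ± 0.14, adjusted p = 0.342). Cxcl10, a chemokine that draws T cells, had levels of 0.660, 0.824 and 0.360 with corn oil and 1.13, 1.21 and 0.691 with monuron. Monuron replicate 3 lay inside the corn oil range, and the log2 fold change of 0.76 ± 0.37 did not pass (adjusted p = 0.354).

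Each of the 4 genes for peptides on MHC class I lay below 0 and 0 passed. At an unadjusted p under 0.05, 2 lay lower, against 6.73% of all genes. Tap2 lay above 0 without scaling, at 0.03. The immunoproteasome subunits Psmb8 and Psmb9 cut proteins into peptides. Psmb8 had levels of 1.64, 1.56 and 1.82 with corn oil and 1.11, 1.63 and 1.29 with monuron, with monuron replicate 2 inside the corn oil range (-0.33 ± 0.15). Psmb9 had levels of 2.31, 2.29 and 2.43 with corn oil and 1.77, 2.21 and 1.86 with monuron, which did not overlap (-0.27 ± 0.10, adjusted p = 0.251). The peptide transporter's 2 chains differed in size, with Tap1 at -0.27 ± 0.10 and Tap2 at -0.06 ± 0.14, and both overlapped between groups.

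The PARP proteins Parp9 and Parp14, which attach ADP-ribose and act in interferon signalling, both lay above 0, and both below 0 when scaled on spike-in controls, at -0.43 and -0.12. Parp14 had levels of 4.87, 4.38 and 4.08 with corn oil and 5.44, 6.30 and 5.40 with monuron. The groups were apart and the level was 1.29-fold higher (95% interval 1.08 to 1.53), which did not pass (adjusted p = 0.166). Its 4 probes ranged from 0.05 to 0.47. Parp9 differed by less than its error, at 0.06 ± 0.15.

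Of the 4 remaining interferon-induced genes, 3 were tested and 0 passed. At an unadjusted p under 0.05, 1 lay lower, against 6.73% of all genes. Ifi35, an interferon-induced leucine zipper protein, had levels of 1.65, 2.11 and 2.02 with corn oil and 1.58, 1.28 and 1.37 with monuron. The groups did not overlap, but corn oil replicate 1 and monuron replicate 1 were close (-0.45 ± 0.13, adjusted p = 0.177). Ifi27 ranged widely within both groups, from 19.4 to 27.2 with corn oil and from 12.2 to 24.0 with monuron (-0.32 ± 0.27). Ifi44 overlapped at 1 array, with levels of 0.860 to 1.13 with corn oil and 0.714 to 0.864 with monuron (-0.31 ± 0.14). Xaf1 matched 0 probes and was not analysed here.

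Monuron replicate 2 was the highest of the 3 monuron arrays for 19 of the 30 genes and the lowest for 5. Over all genes tested, it was highest for 32.6%. The median shift of the 30 genes from their corn oil means was -0.29, -0.11 and -0.27 in monuron replicates 1 to 3, and -0.02, 0.07 and -0.02 in corn oil replicates 1 to 3. Most leukocyte lists also had their highest median shift of the monuron arrays in replicate 2. These were T cell, NK cell, macrophage and monocyte, dendritic cell, plasmacytoid dendritic cell (Bst2 included), pan-leukocyte and neutrophil markers. The 3 tested B and plasma cell markers had theirs in replicate 3, while their sum was highest in replicate 1. This order was not limited to leukocyte lists. Markers of the loop of Henle, distal tubule and collecting duct (0.06, 0.18 and 0.02 in monuron replicates 1 to 3) were also highest in replicate 2. So were fibroblast and mesangium markers (-0.08, -0.01 and -0.02). Endothelium, proximal tubule, podocyte, hepatocyte and red cell markers were not. The median shift of the 6 pan-leukocyte markers was -0.28, 0.05 and -0.33 in monuron replicates 1 to 3, and that of the 11 macrophage and monocyte markers -0.42, -0.06 and -0.41. Within corn oil the order differed, since both lists were highest in replicate 3, at 0.19 and 0.28, and the 30 genes in replicate 2.

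The 6 tested T cell markers all lay below 0 with monuron and 0 passed. In 4 of the 6 every monuron array was below every corn oil array, an order found in 10.3% of all genes. Their summed level was 1.07 to 1.34 with monuron and 1.50 to 1.68 with corn oil. Cd3e, Cd2, Cd5 and Trat1, also T cell markers, were well above background on at most 2 of the 6 arrays and were not tested. The 11 macrophage and monocyte markers summed to 68.9 to 90.3 with monuron and 74.6 to 122 with corn oil, 9 of them below 0 and 0 called, and most of that sum came from Lyz2. Cd163, a macrophage marker, was above background on 0 arrays. Of the 6 pan-leukocyte markers 5 lay below 0, while Cd52 rose (log2 fold change 2.16 ± 0.25, adjusted p = 0.0253). The pan-leukocyte sums overlapped, at 13.0 to 15.7 with monuron and 14.1 to 17.4 with corn oil. Neutrophil and NK cell markers did not lie lower on balance. The 3 tested neutrophil markers lay above 0 with a median of 1.15 and sums of 0.985 to 2.49 against 0.621 to 0.928, with 0 called. S100a8 and S100a9 lay at 1.31 and 1.15, while Csf3r lay at 0.08 and overlapped between groups. Of the other neutrophil markers, Elane and Ngp were well above background on 0 arrays, Cxcr2 on at most 1, and Mpo matched 0 probes. The 5 tested NK cell markers had a median of 0.11 and sums of 2.53 to 3.03 against 2.46 to 2.65. In whole tissue, fewer leukocytes and less RNA per cell cannot be told apart, and the part of these markers in the module's values was not tested.

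**Figure D4:**
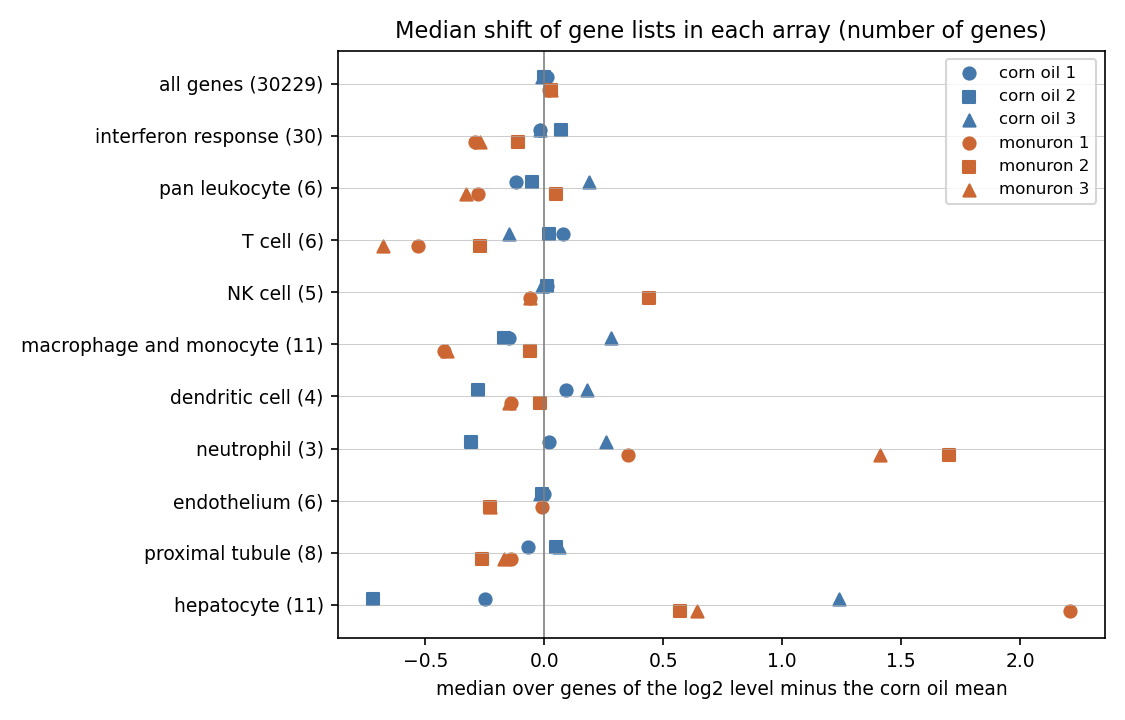
Median shift from the corn oil mean, in log2 units, of the interferon response genes and of marker lists in each array, with the number of genes in brackets. The interferon response genes sit at -0.29, -0.11 and -0.27 in the monuron arrays, T cell markers at -0.53, -0.27 and -0.68, and hepatocyte markers are highest in monuron replicate 1 and corn oil replicate 3.

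Liver transcripts varied in both groups. The 11 hepatocyte markers summed to 15.5 to 32.5 with corn oil and 23.2 to 50.9 with monuron, highest in corn oil replicate 3 and monuron replicate 1. Without these 2 arrays, 0 genes of the module and 0 of all genes passed in either direction, with 2 arrays left in each group. The log2 fold changes were then -1.56 for Usp18, -0.88 for Irf7 and -1.21 for Ifit3, and the median of the 30 genes was -0.18.

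The rest of the interferon pathway was taken from 6 lists of 140 distinct genes, of which 105 had a probe and 93 were tested. Of these 1 rose and 1 fell, where 0.949% and 0.414% of all genes did, and the median log2 fold change was 0.00. In 17 of the 93, or 18.3%, every monuron array was below every corn oil array, against 10.3% of all genes. In 13 every monuron array was above, an order that 15.5% of all genes had. Tapbpl, among these 13, was tested only because of the monuron arrays. Isg20, an exonuclease that degrades viral RNA, rose from 0.403, 0.406 and 0.412 with corn oil to 0.603, 0.706 and 0.605 with monuron. Irf5, a transcription factor of interferon and cytokine genes, fell from 1.99, 2.09 and 2.05 to 1.49, 1.38 and 1.51. In both genes the 3 arrays of a group were tight and the groups far apart. The log2 fold changes were 0.65 ± 0.08 for Isg20 and -0.48 ± 0.07 for Irf5, at adjusted p-values of 0.0344 and 0.0415. Both calls were lost when any 1 of the 6 arrays was left out.

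Of the interferons and their receptors, 4 of 13 were tested and 0 passed, also at an unadjusted p under 0.05. Ifnar1, a chain of the type I receptor, differed by -0.07 ± 0.10, and the interferon gamma receptor chains Ifngr1 and Ifngr2 by 0.03 ± 0.12 and -0.11 ± 0.12. The interferon genes Ifnb1, Ifng and Ifnk were well above background on 0 of the 6 arrays. In signal transduction, 15 of 16 genes were tested and Irf5, which fell, was the 1 that passed. Over all genes 0.414% fell and 0.949% rose. The next smallest p-values belonged to Stat3, a STAT shared with cytokine receptors, at 0.28 ± 0.08, to the phosphatase Ptpn11 at 0.19 ± 0.06 and to the repressor Irf2 at 0.17 ± 0.11.

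Of the genes that sense nucleic acids upstream of interferon, 13 of 19 were tested and 0 passed. At an unadjusted p under 0.05, 4 lay lower and 1 higher, where 6.73% and 10.9% of all genes did. Ikbke, a kinase that activates IRF3 and IRF7, had levels of 2.02, 2.32 and 2.02 with corn oil and 1.33, 1.35 and 1.74 with monuron, with no overlap (-0.53 ± 0.13, adjusted p = 0.125). The kinase adaptor Azi2 lay at -0.26 ± 0.08 and the ubiquitin ligase Trim25, which activates RIG-I and also stands in the ISG15 list, at -0.31 ± 0.10. In the ISG15 conjugation cycle 4 of 6 were tested, with the ligase Arih1 at 0.12 ± 0.07 and the conjugating enzyme Ube2l6 at -0.15 ± 0.10 beside Trim25. In class I antigen processing 12 of 14 were tested with a median of 0.07. Beta-2-microglobulin (B2m), the light chain of class I, differed by -0.17 ± 0.07, Tapbpl, a peptide editor, by 0.78 ± 0.26 and Tapbp, tapasin, by 0.18 ± 0.09. Tapbpl was well above background on 2 corn oil arrays and 3 monuron arrays, so it was tested only because of the monuron arrays.

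The largest list, other interferon-stimulated genes, had 46 of 73 tested, with a median log2 fold change of -0.04. Of the 46, 1 was called higher and 0 lower, where 0.949% and 0.414% of all genes were. At an unadjusted p under 0.05, 11 lay lower and 3 higher, where 6.73% and 10.9% of all genes did. In 10 of the 46, or 21.7%, every monuron array was below every corn oil array, against 10.3% of all genes. In 6 every monuron array was above, an order that 15.5% of all genes had. Beside Isg20, the smallest p-values were those of Oas1k, at 0.146, 0.188 and 0.204 with corn oil and 0.0688, 0.105 and 0.0769 with monuron (-1.11 ± 0.20, adjusted p = 0.0733), Phf11, which has a close paralogue that may share its signal, at -0.48 ± 0.10, and the RNA exonuclease Pnpt1 at 0.28 ± 0.06. Oas1i, named here after its value was seen, differed by -1.31 ± 0.34 (adjusted p = 0.137). Both are copies of Oas1 and may share signal with Oas1a.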

How the data were processed

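Total RNA from renal cortex of 6 rats was labelled with Cy3 and hybridised to 1-colour Agilent arrays. The authors deposited spot intensity for every probe, unlogged, from Agilent Feature Extraction (version 10.7, per the submitters' processing notes). A second deposited table holds a ratio, which comparison with the scanner files showed to be the processed signal over each array's 75th percentile, and it served as an alternative.

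Here, the processed signal was divided by the 75th percentile over the array's 61537 non-control probes and put on a log2 scale. The 1439 control spots and outlier spots were left out. Detection required a signal well above background in all 3 arrays of either group, which left 41125 probes, and each gene was represented by its brightest one. RefSeq symbols (GRCr8) were found for 28206 probes (45.8%) through their accessions, and the others kept the file's identifier. No probe coordinates are given, since the array cites an older build. The comparison used lmFit and eBayes of limma 3.58.1 (R 4.3.3), two-sided, with Benjamini-Hochberg adjustment over 30229 genes and a threshold of 0.05. It was tested on simulated data. Where a group was not above background, a bound sets the other group's mean against the dim group's lowest detectable signal.

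The members and lists were chosen with earlier results of these data known. Every member is named, and in each pathway list the called genes and the 3 others with the smallest p. The files hold no mean spot signal, so the normexp alternative (offset 50) used the median spot signal. Alternatives covered scaling, background correction, detection, probe choice, limma settings, the replicate number as a block, arrays left out and, added after seeing the data, every probe on its own. Same-numbered arrays of the groups correlated at -0.08, 0.11 and -0.17 in their deviations from the group means, and arrays of unlike number at -0.13 to 0.22. No pairing of the animals by number was seen, though 3 arrays in each group cannot exclude it.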

Additional observations from a re-analysis of the deposited data

How the results depend on the processing

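Usp18 and Irf7 kept their direction in all 19 alternatives, and their calls held in 11 and 10 of them. Quantile normalization, median centring, the authors' table, a floor on low values and averaging a gene's probes left each count of calls within 1.5 times, as did a stricter detection rule over all 6 arrays, where Ifit3 also passed. The causes of the shifts below were not tested.

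Of all genes tested, 0.949% rose and 0.414% fell in the values reported above. Without scaling, 1.21% rose and 0.202% fell, 0 pathway genes fell, the median of the tested interferon response genes was -0.20, and Ifih1, Eif2ak2 and Tap2 lay at 0.06, 0.00 and 0.03. Scaled on spike-in controls, 1.03% rose and 66.3% fell, with 25 interferon response genes and 72 pathway genes lower, 0 pathway genes higher and a median of -0.77. Stat2, Irf1, Oas3, Parp9 and Parp14 then lay at -0.36, -0.35, -0.04, -0.43 and -0.12. With normexp, 1.49% rose and 1.06% fell, 1 interferon response gene (Parp14) rose, and 5 pathway genes fell. With trend and robust, 1.43% rose and 0.913% fell, with 4 interferon response genes (Usp18, Irf7, Ifit3, Isg15) and 2 pathway genes lower. With no detection filter, 0.147% rose and 0.0418% fell, with 0 interferon response genes lower and 0 pathway genes called. Averaged over a gene's probes, Irf1 lay at -0.13 and Eif2ak2 at 0.04.

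With the replicate number as a block, 0 genes rose and 0 fell, among them 0 interferon response genes and 0 pathway genes. The block used the arrays' numbers, for which no pairing of the animals was seen. Leaving out each array in turn, between 0.0821% and 0.366% of genes rose and between 0.0164% and 0.0891% fell. Interferon response genes lower ranged from 0 to 2, pathway genes called were 0 in either direction, and the median ranged from -0.34 to -0.21. No interferon response gene was called without corn oil replicate 1, corn oil replicate 2 or any of the 3 monuron replicates. Without corn oil replicate 3, Usp18 and Ifit3 passed. In these analyses Parp9 ranged from -0.05 to 0.18, Tap2 from -0.16 to 0.03 and Ifih1 from -0.13 to 0.05. Without the 2 arrays highest in liver transcripts, 0 genes rose and 0 fell, 0 interferon response genes and 0 pathway genes were called, the median was -0.18 and Ifih1 lay at 0.06.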
